A study of Mus musculus with 12 samples.

Results

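The comparison set the 6 libraries labelled Nnmt-OE against the 6 mock libraries over both treatments, with TGFβ as an additive term. It used all 12 libraries of the series, and its question was what the larger sample adds to the 2 comparisons of 3 against 3, without and with TGFβ. All libraries came from im_TEC, a conditionally immortalised line of mouse tubular epithelial cells, whose counterparts in the kidney line the tubules. They carried either a mock construct or an expression construct for Nnmt, and both kinds had been selected on puromycin. The 4 groups of 3 libraries were mock, mock with TGFβ at 10 ng/mL for 48 h, Nnmt-OE, and Nnmt-OE with the same TGFβ treatment. Cells of all groups were grown at 33 °C with interferon γ at 10 ng/mL, then held at 37 °C without it for 7 days to lower the activity of the large T antigen that immortalises them. The medium of all groups also held epidermal growth factor (EGF) at 20 ng/mL, hydrocortisone at 36 ng/mL and 10% serum. The labels do not say which promoter drives the construct, whether each kind of cell came from 1 or several transductions or clones, or whether replicates were grown as separate cultures. The p-values therefore measure only how far these samples spread, which may be technical. The library codes in the labels run in 1 block for Nnmt-OE and in another for mock, so a difference in handling between the blocks cannot be told apart from the construct. The genotype field of the Nnmt-OE groups reads Nmt-OE, while their titles read Nnmt-OE.

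Nicotinamide N-methyltransferase, the product of Nnmt, methylates nicotinamide with S-adenosylmethionine as the donor, so it draws on both the methyl donor pool and the precursor of NAD. TGFβ is the cytokine most used to drive fibrotic change in cultured tubular cells, and it signals through SMAD transcription factors. Immediate-early genes, which recur below, are genes whose transcription starts within minutes of a growth factor, stress or stretch signal without new protein synthesis. Many of them encode transcription factors of the EGR, FOS and JUN families, and others encode phosphatases and adaptor proteins that shut the same kinase pathways down again.

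Reads assigned to genes numbered 4733846 to 7247413 per library, with a median of 5805282. Because the method reads transcripts only near their 3′ ends, values are given as counts scaled to library size (CPM) and not for length. Of the cell type markers checked, 5 of 9 of tubular epithelium reached 1 CPM on average, among them Pax8, Pax2 and Cdh16, and Cdh1 and Epcam had no read. Of the proximal tubule markers, 3 of 9 reached 1 CPM, and Slc22a6 and Hnf4a had no read. Markers of the distal nephron (0 of 8) and endothelium (0 of 8) did not reach 1 CPM. The fibroblast and pericyte list had 1 of 8 there, Col1a1, and Col3a1, Lum and Rgs5 had no read. The leukocyte list had 2 of 8, Csf1r and Cd68, and Adgre1, Cd3e and Itgam had no read. The podocyte list had 3 of 7, and Ptpro had no read. The summed marker level of each of these lists overlapped between the mock libraries and those labelled Nnmt-OE. For the epithelial list it ran from 718 to 862 CPM in mock libraries and from 736 to 826 CPM in Nnmt-OE libraries. In bulk RNA, fewer cells of a type and less RNA per cell cannot be told apart. On the first 3 principal components, mock replicate 1 and, among TGFβ-treated cells, replicate 3 of mock and replicate 3 of Nnmt-OE stood apart from the other libraries, and on the fourth (10.17% of variance) Nnmt-OE replicate 1 was the extreme library.

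Nnmt itself did not pass the test in the libraries labelled Nnmt-OE. Its level was 24.7, 17.8 and 18.3 CPM in mock replicates 1 to 3 and 24.5, 28.5 and 22.9 CPM in the Nnmt-OE replicates without TGFβ. With TGFβ it was 33.3, 29.7 and 27.9 CPM in mock against 33.9, 22.5 and 26.3 CPM in Nnmt-OE. The groups overlapped in each treatment and over all 12 libraries. The pooled fold was 1.06 (95% interval 0.856 to 1.31, adjusted p = 0.966 by edgeR's quasi-likelihood test), and the 6-library means were 25.3 CPM (mock) and 26.4 CPM (Nnmt-OE). Whether the construct carries the 3′ end of the native transcript is not given in the sources used here. A 3′ tag would not count a construct transcript that ends elsewhere, so this value does not check the labels, and all directions below are between libraries labelled Nnmt-OE and libraries labelled mock.

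Over both treatments, 12 of the 12897 genes tested differed, 0.0930% of them, and all 12 were higher in the libraries labelled Nnmt-OE. They were Egr1, Dusp1, Ier3, Ccn1, Trib1, Fstl1, Junb, Jun, Cxcl1, Btg2, Tmem138 and Pdgfb, and their folds ran from 1.23 to 2.25. No gene was lower by edgeR's quasi-likelihood test after Benjamini-Hochberg adjustment over all genes. At an unadjusted p under 0.05, 799 genes differed by the same test (6.20%), 431 higher (3.34%) and 368 lower (2.85%), and DESeq2 called 3 genes lower. The median log2 fold change over all genes tested was -0.0016, and 49.6% of them were above 0. All 12 genes had their 3 Nnmt-OE libraries above their 3 mock libraries within each treatment. Over all genes tested this held for 0.558% in that direction and for 0.333% in the other. The pooled test on these same libraries favours such genes, so their separation is no independent evidence. For Egr1, Dusp1, Ier3, Cxcl1 and Tmem138 the 6 libraries labelled Nnmt-OE also lay above the 6 mock libraries with no regard to treatment. Over all genes tested, 0.132% were apart in this way in that direction and 0.0930% in the other. For scale, TGFβ in the same fit changed 668 genes (5.18%), 331 higher (2.57%) and 337 lower (2.61%).

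**Figure D1:**
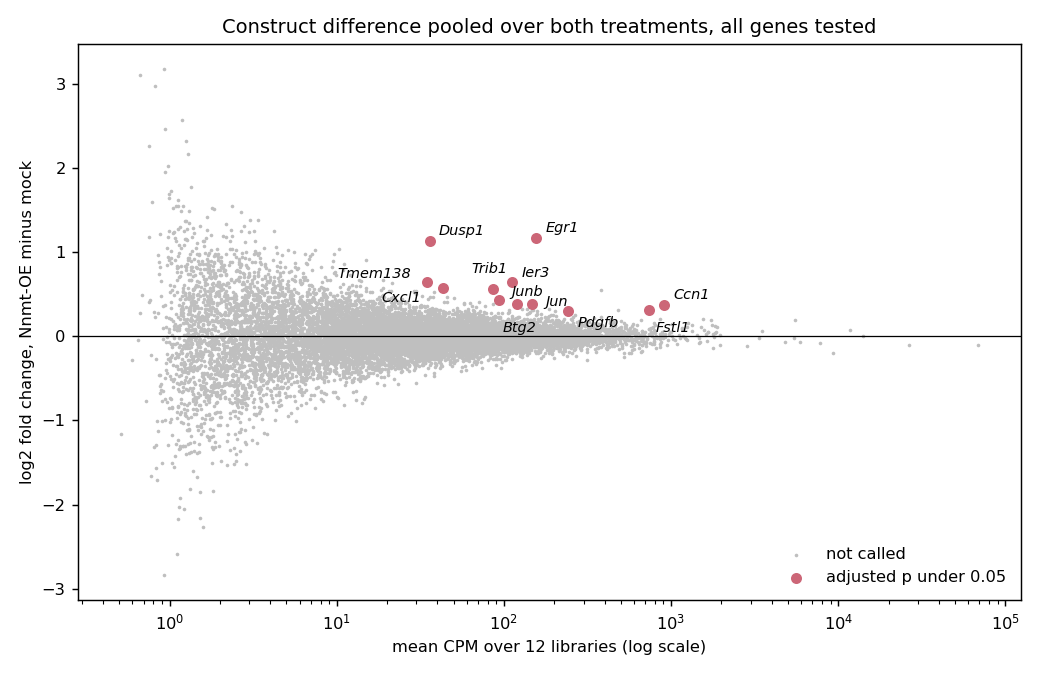
Log2 fold change of libraries labelled Nnmt-OE over mock, pooled over both treatments (vertical axis), against the mean CPM over 12 libraries on a log scale (horizontal axis), with 1 point for each of 12897 genes and the 12 genes with an adjusted p under 0.05 in red. All 12 red points lie above 0, between 0.30 and 1.17, and none has a mean below 10 CPM.

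The transcription factors among the 12 were Egr1, Junb and Jun. Egr1 encodes a zinc-finger factor and is among the most widely used readouts of ERK and SRF signalling. Without TGFβ it stood at 122, 110 and 109 CPM in mock against 280, 268 and 252 CPM in Nnmt-OE libraries. In TGFβ-treated cells it stood at 76.8, 75.6 and 80.6 CPM in mock against 149, 163 and 188 CPM in Nnmt-OE libraries. The highest mock value thus lay below the lowest Nnmt-OE value of either treatment, although the TGFβ libraries were lower in both kinds of cell. The pooled log2 fold change of Egr1 was 1.17 ± 0.075 (SE of the model, 6 libraries a side), a fold of 2.25 with a 95% interval of 2.02 to 2.49 (edgeR quasi-likelihood test, adjusted p = 1.25e-14). TGFβ itself lowered Egr1 in the same fit, with a log2 change of -0.62 (adjusted p = 1.38e-07).

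Junb and Jun encode subunits of the AP-1 factor. Junb stood at 65.5, 69.6 and 81.2 CPM in mock against 106, 91.2 and 98.0 CPM in Nnmt-OE libraries without TGFβ. Its TGFβ-treated libraries stood at 91.5, 84.0 and 87.7 CPM in mock against 105, 117 and 128 CPM in Nnmt-OE. The groups were apart within each treatment, and the highest mock values with TGFβ reached the lowest Nnmt-OE values without it. Junb had a pooled log2 fold change of 0.43 ± 0.086 (adjusted p = 0.0210), and neither treatment alone gave a call (adjusted p = 0.718 without and 0.892 with TGFβ). Jun stood at 129, 149 and 134 CPM in mock against 168, 174 and 178 CPM in Nnmt-OE libraries, and with TGFβ at 127, 123 and 110 CPM and 144, 145 and 197 CPM. Its Nnmt-OE values with TGFβ were close together in replicates 1 and 2, while replicate 3 lay well above them, and the groups were apart within each treatment. The pooled log2 fold change of Jun was 0.38 ± 0.080 (adjusted p = 0.0323), and without that replicate 3 the adjusted p was 0.212. Prdx2 overlaps Junb on the other strand and was read 13769 times against 6632 times for Junb. Junos overlaps Jun likewise, with 33 reads against 10427 for Jun. The strand setting of the counting is not given, so reads of Junb and of Jun may include reads of these overlapping genes.

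The next group was a phosphatase of kinase signalling, Dusp1, and other feedback or short-lived regulators, Ier3, Trib1 and Btg2. Dusp1 encodes a phosphatase that inactivates p38, JNK and ERK kinases, and its transcript is induced by the pathways it shuts down. It stood at 16.7, 19.1 and 27.9 CPM in mock against 45.7, 54.7 and 50.7 CPM in Nnmt-OE libraries. Under TGFβ the values were 29.1, 22.8 and 19.8 CPM in mock against 56.7, 49.0 and 40.9 CPM in Nnmt-OE. All 6 mock values lay below all 6 Nnmt-OE values, and the TGFβ change of 0.06 on the log2 scale did not pass (adjusted p = 0.904). The pooled fold of Dusp1 was 2.19 (1.8 to 2.67, adjusted p = 3.14e-06), with 2.36 without and 2.04 with TGFβ. Ergic1 overlaps Dusp1 on the other strand and was read 12648 times against 2568 times for Dusp1, so a share of reads could be misassigned if strand was not used.

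Ier3 encodes a short-lived protein tied to ERK feedback and to survival under stress. Its values were 68.7, 96.3 and 73.4 CPM in mock against 131, 121 and 112 CPM in Nnmt-OE libraries. With TGFβ they were 102, 88.1 and 98.3 CPM in mock against 159, 149 and 152 CPM in Nnmt-OE. The 6 and 6 libraries did not overlap, and TGFβ raised Ier3 as well (log2 change 0.31, adjusted p = 0.0204). The pooled log2 fold change of Ier3 was 0.64 ± 0.085, a fold of 1.56 (adjusted p = 1.12e-05).

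Trib1 and Btg2 encode short-lived regulators, Trib1 a pseudokinase that directs proteins to degradation and Btg2 an antiproliferative adaptor of the mRNA decay machinery and a p53 target. Trib1 stood at 64.8, 84.0 and 67.8 CPM in mock against 114, 134 and 127 CPM in Nnmt-OE libraries. Under TGFβ Trib1 stood at 59.3, 69.8 and 65.8 CPM in mock against 76.4, 84.3 and 80.9 CPM in Nnmt-OE. The groups were apart in each treatment, by a wide gap without TGFβ and a narrow one with it. The pooled log2 fold change of Trib1 was 0.56 ± 0.097 (adjusted p = 0.00295), made of 0.80 without and 0.31 with TGFβ. The difference between those was -0.49 ± 0.18 (95% interval -0.85 to -0.12, unadjusted p = 0.0104 and adjusted p = 0.999, edgeR quasi-likelihood test of the interaction), so it did not pass over all genes tested. Btg2 stood at 102, 116 and 118 CPM in mock against 159, 152 and 145 CPM in Nnmt-OE libraries, and with TGFβ at 102, 105 and 82.6 CPM and 129, 113 and 116 CPM. Its groups were apart within each treatment, while mock libraries without TGFβ reached the Nnmt-OE libraries with it. Its pooled log2 fold change was 0.38 ± 0.081 (adjusted p = 0.0423). TGFβ lowered both genes, with log2 changes of -0.40 for Trib1 and -0.28 for Btg2 (adjusted p = 0.00768 and 0.0279).

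Secreted proteins made up the third group, Ccn1, Fstl1, Cxcl1 and Pdgfb. Ccn1, a matrix-associated integrin ligand and target of YAP and SRF, stood at 705, 621 and 664 CPM in mock against 857, 963 and 859 CPM in Nnmt-OE libraries. In the TGFβ libraries it stood at 990, 925 and 863 CPM in mock against 1140, 1230 and 1103 CPM in Nnmt-OE. Mock libraries with TGFβ and Nnmt-OE libraries without it covered nearly the same range. The pooled fold of Ccn1 was 1.30 (1.2 to 1.4, adjusted p = 0.000129), close to the TGFβ fold of 1.35 in the same fit. Fstl1, a secreted glycoprotein of the follistatin family, stood at 480, 556 and 486 CPM in mock against 669, 573 and 664 CPM in Nnmt-OE, and with TGFβ at 763, 802 and 856 CPM and 1019, 916 and 1040 CPM. Its pooled fold was 1.24 (1.14 to 1.34, adjusted p = 0.00819), and neither treatment alone gave a call (adjusted p = 0.458 and 0.709). Within a treatment the nearest Fstl1 values were 556 and 573 CPM without TGFβ and 856 and 916 CPM with it.

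Cxcl1, a chemokine that draws neutrophils and an NF-κB target, stood at 34.1, 38.2 and 30.4 CPM in mock against 43.4, 57.1 and 54.3 CPM in Nnmt-OE libraries. Cxcl1 with TGFβ stood at 30.8, 39.6 and 34.1 CPM in mock against 48.1, 60.9 and 44.8 CPM in Nnmt-OE. The mock libraries of both treatments covered nearly the same range, and all 6 lay below the 6 Nnmt-OE libraries. The pooled fold of Cxcl1 was 1.49 (1.26 to 1.77, adjusted p = 0.0323), with 1.51 without and 1.47 with TGFβ. Pdgfb, a growth factor for pericytes and fibroblasts, stood at 171, 185 and 157 CPM in mock against 206, 208 and 224 CPM in Nnmt-OE, and with TGFβ at 262, 254 and 276 CPM and 351, 304 and 309 CPM. The 3 Nnmt-OE values lay above the 3 mock values in each treatment, and mock with TGFβ lay above Nnmt-OE without it. Its pooled log2 fold change was 0.30 ± 0.065 (adjusted p = 0.0464), against a TGFβ change of 0.61. The remaining gene, Tmem138, encodes a membrane protein of the primary cilium and stood at 27.0, 32.0 and 23.2 CPM in mock against 40.7, 39.6 and 50.7 CPM in Nnmt-OE. With TGFβ it stood at 33.1, 29.7 and 17.9 CPM in mock against 43.8, 39.1 and 40.7 CPM in Nnmt-OE, so no mock library reached any Nnmt-OE library. Its pooled log2 fold change was 0.64 ± 0.14 (adjusted p = 0.0464), and Cyb561a3 overlaps it on the other strand.

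**Figure D2:**
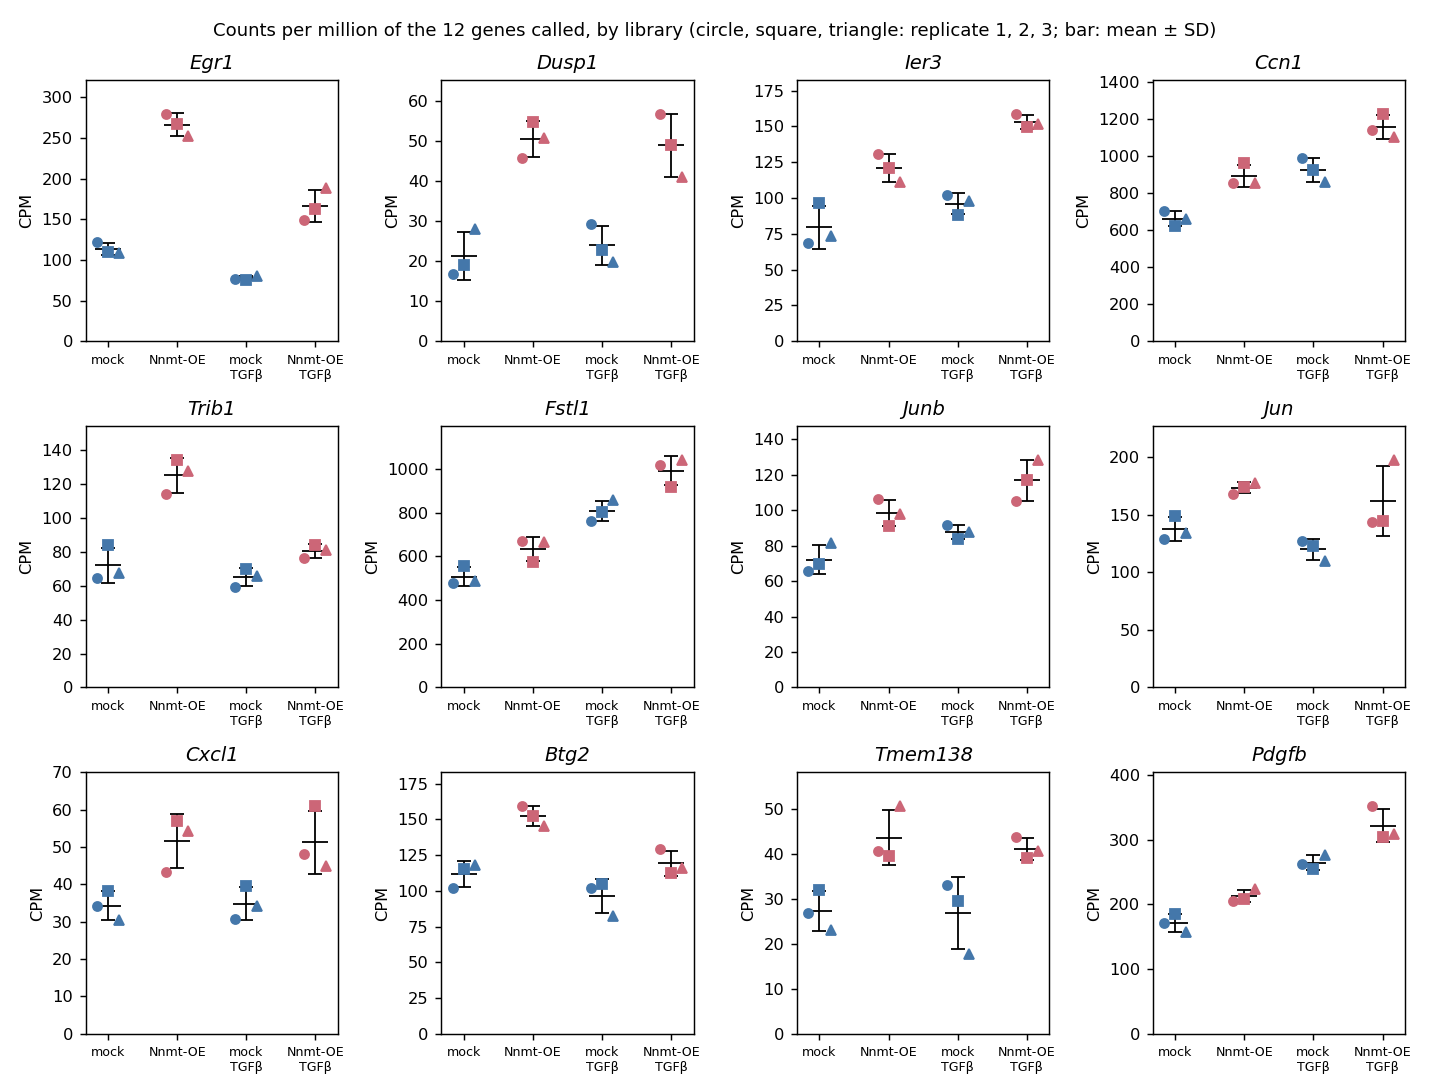
CPM of the 12 called genes (vertical axes, each from 0) in the 4 groups of 3 libraries, with each library as a point and the mean ± SD as bars. In each panel the libraries labelled Nnmt-OE (red) lie above the mock libraries (blue) of the same treatment, while Egr1 falls and Ccn1, Fstl1 and Pdgfb rise from the untreated to the TGFβ libraries.

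The promoters of genes that moved together are shown for what they hold. RefSeq promoter windows of GRCm38.p6 were matched by symbol for 9 of the 12 genes, all but Egr1, Trib1 and Pdgfb. The 250 bases before the annotated start were searched on both strands. The motifs were the full cyclic-AMP response element TGACGTCA (CRE), the site of CREB and ATF factors, its shorter form TGACG, the AP-1 site TGANTCA, the EGR site GCGNGGGCG, the TATA box TATAAA, and the CArG box of SRF and the NF-κB site by their usual patterns. Each full CRE also holds the short form, once on each strand. Below are the windows with a full CRE, Dusp1 (chr17:26508473-26508722, minus strand) and Btg2 (chr1:134079156-134079405, minus strand), and that of Cxcl1 (chr5:90890995-90891244, plus strand), which has matches to the NF-κB pattern. They read 5′ to 3′ along the gene's strand, and capitals mark the matches.
Dusp1: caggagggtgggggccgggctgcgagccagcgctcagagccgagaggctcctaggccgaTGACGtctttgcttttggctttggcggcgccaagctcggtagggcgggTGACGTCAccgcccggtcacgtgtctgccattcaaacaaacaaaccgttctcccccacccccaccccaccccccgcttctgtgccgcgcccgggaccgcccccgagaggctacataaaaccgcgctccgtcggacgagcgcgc
Btg2: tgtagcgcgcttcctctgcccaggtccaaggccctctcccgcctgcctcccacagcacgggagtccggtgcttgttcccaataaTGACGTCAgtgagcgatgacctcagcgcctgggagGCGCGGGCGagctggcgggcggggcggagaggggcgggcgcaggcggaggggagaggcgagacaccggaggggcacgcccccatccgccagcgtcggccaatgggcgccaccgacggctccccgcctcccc
Cxcl1: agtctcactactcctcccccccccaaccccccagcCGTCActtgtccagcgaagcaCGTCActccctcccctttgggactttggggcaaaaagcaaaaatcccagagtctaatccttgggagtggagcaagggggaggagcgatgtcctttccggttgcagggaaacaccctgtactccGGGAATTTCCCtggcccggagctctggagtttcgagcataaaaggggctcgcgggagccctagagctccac

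In Dusp1 the full CRE lay 143 to 136 bases before the start, with a further short form at 191 to 187 bases. In Btg2 the full CRE lay 166 to 159 bases before the start, followed by an EGR match at 131 to 123 bases. In Cxcl1 the NF-κB pattern matched in overlapping positions between 71 and 61 bases before the start, and short CRE forms lay at 215 to 211 and 194 to 190 bases. A full CRE was thus in 2 of 9 windows, against 2.92% of the 8969 promoters of tested genes with a window. The short form was in 5 of 9 (Dusp1, Ccn1, Junb, Cxcl1 and Btg2) against 28.6%, and the NF-κB pattern in 2 of 9 (Ier3 and Cxcl1) against 4.44%. The letters TATAAA were in 2 of 9 (Ccn1 and Tmem138) against 5.83%, with both strands counted. In Tmem138 they lay on the strand opposite to the gene, so only Ccn1 had them in the direction of a TATA box. The EGR site was in 1 of 9 against 9.32%. The AP-1 site and the CArG box were in 0 of 9, against 3.99% and 1.17%, which says only that these letters are not in these windows. The promoters of Egr1, Trib1 and Pdgfb were not searched. The matches are descriptions of the sequence and were not tested as sites.

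The larger sample added precision. Over the 9125 genes at 10 CPM or more, the 95% interval of a pooled log2 fold change reached 0.247 to either side at the median, against 0.351 without TGFβ and 0.349 with TGFβ, a ratio of 1.42 and 1.41. The intervals within a treatment came from a fit of the same 12 libraries. That ratio therefore follows mainly from having 6 and not 3 libraries a side, and is not a finding of these data. In the fit of all 12 libraries with a mean for each group, which shares its estimate of the spread, the comparison of 3 against 3 called 5 genes without TGFβ (0.0388%), Egr1, Dusp1, Ier3, Ccn1 and Trib1, and 3 with TGFβ (0.0233%), Egr1, Dusp1 and Ier3. Fitted on the 6 untreated libraries alone it called 3 genes, and Ier3 and Ccn1 did not pass (adjusted p = 0.301 and 0.251). On the 6 TGFβ libraries alone it also called 3. Fstl1, Junb, Jun, Cxcl1, Btg2, Tmem138 and Pdgfb were called in neither, and pooling added them. Their folds in the separate treatments lay side by side: 1.25 and 1.23 for Fstl1, 1.36 and 1.33 for Junb, 1.26 and 1.35 for Jun, and 1.36 and 1.24 for Btg2, without and with TGFβ. For Tmem138 they were 1.60 and 1.53, and for Pdgfb 1.24 and 1.22. The pooled test on these same libraries favours genes that are higher in both treatments, so this likeness is no independent evidence. Over the 9125 genes at 10 CPM or more, 53.95% had both differences in the same direction. Without the TGFβ term in the pooled fit, only Dusp1 and Ier3 passed, and Egr1 had an adjusted p of 0.149 with the same fold. The pooled fit with a mean for each of the 4 groups called 9 genes, losing Btg2, Tmem138 and Pdgfb at adjusted p of 0.0504, 0.0601 and 0.0648.

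No gene passed the test of a different construct effect in the presence of TGFβ (0 of 12897 by edgeR, 501 at an unadjusted p under 0.05, which is 3.88%, and 0 by DESeq2). For the genes called, the intervals of that difference show what a design of this size leaves unresolved. For Egr1 it was -0.13 (95% interval -0.43 to 0.18 on the log2 scale), for Dusp1 -0.21 (-0.78 to 0.35), for Ier3 0.06 (-0.29 to 0.41) and for Ccn1 -0.11 (-0.34 to 0.12). For Cxcl1 it was -0.04 (-0.53 to 0.46) and for Tmem138 -0.07 (-0.64 to 0.51), and for both the lower bound was about the size of the pooled log2 fold change (0.58 and 0.64). Across the 9125 genes at 10 CPM or more, the construct difference without TGFβ and the one with TGFβ, which share no libraries, had a Pearson r of 0.10 and a Spearman rho of 0.10. These are across genes, which are not independent replicates.

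**Figure D3:**
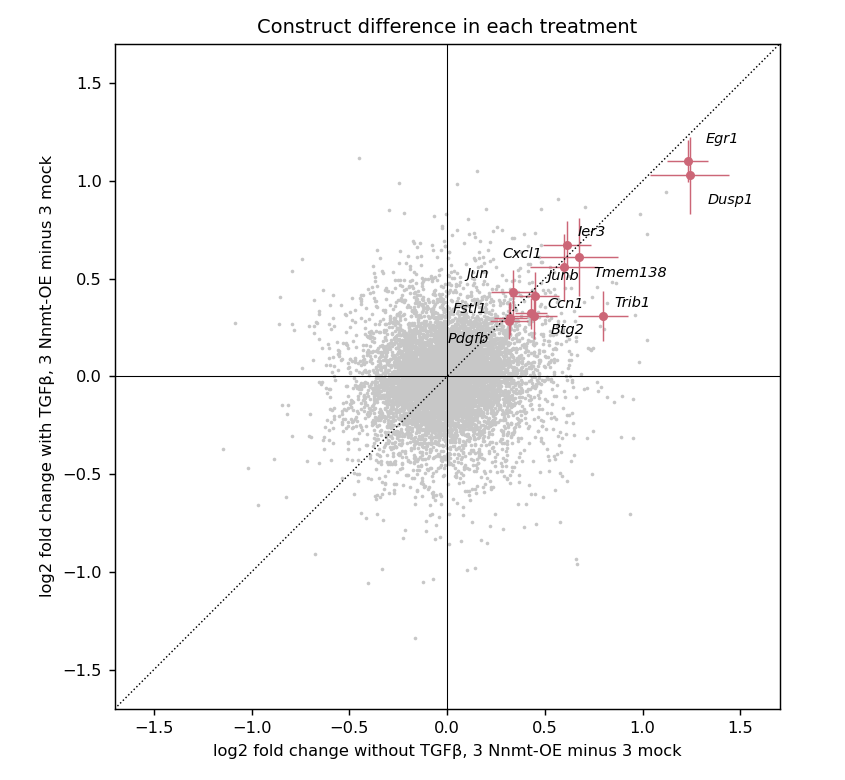
Construct difference with TGFβ (vertical axis) against that without TGFβ (horizontal axis), both as log2 fold change of 3 libraries labelled Nnmt-OE over 3 mock libraries, for the 9125 genes at 10 CPM or more, with the 12 pooled calls in red and their SE as bars. The red points lie in the upper right along the dotted line of equal change, and Trib1, at 0.80 and 0.31, lies farthest below it, while the grey cloud is nearly round. The red points were chosen by the pooled test on these same libraries.

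The calls did not all rest on the sample equally. Egr1, Dusp1, Ier3, Ccn1 and Trib1 passed in all 12 fits that left out 1 library. Fstl1 passed in 10 of 12 and Junb in 7, and the other genes passed in fewer: Jun and Cxcl1 in 5, Pdgfb in 3, and Btg2 and Tmem138 in 2. Their direction did not change in any of these fits, and the lowest log2 fold change in them was 0.27, for Pdgfb. The number of calls fell to 6 without Nnmt-OE replicate 1 or Nnmt-OE with TGFβ replicate 3, and to 7 when mock replicate 3 or the second Nnmt-OE library was left out. Without the 3 libraries that stood apart, a choice made after seeing the data, 12 genes were again called, 8 of them shared. Junb, Jun, Btg2 and Tmem138 were the 4 that dropped out, at adjusted p of 0.149, 0.281, 0.177 and 0.177. Against a threshold of 1.2-fold in place of 0, 3 genes passed.

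**Figure D4:**
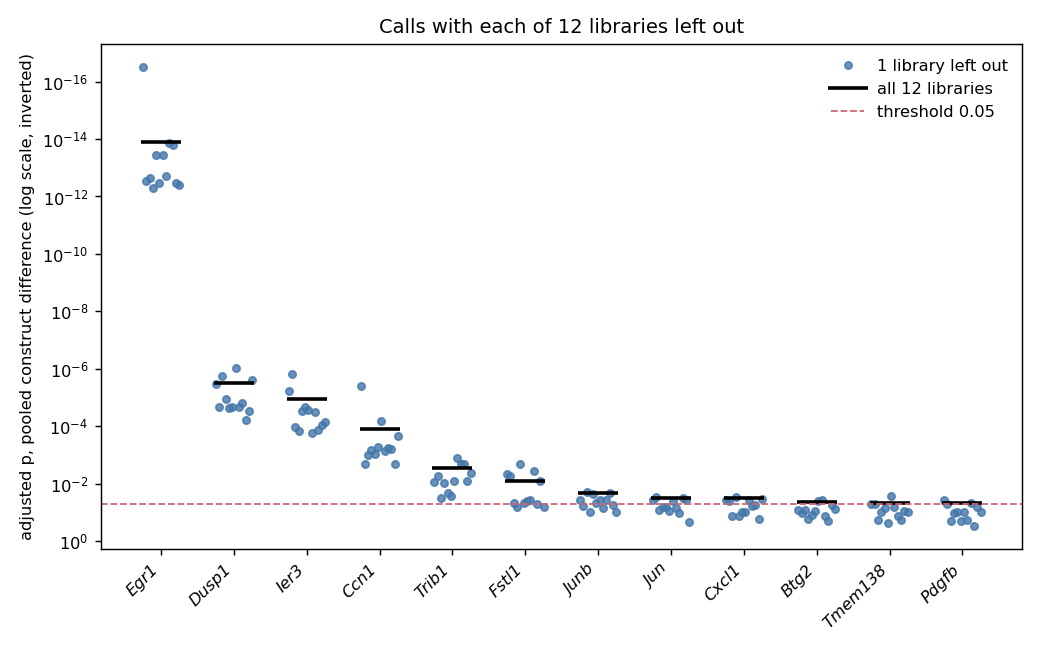
Adjusted p of the pooled construct difference (vertical axis, log scale, inverted so that smaller values are higher) for the 12 called genes, with all 12 libraries (black bar) and with each library left out (blue points). The first 5 genes, Egr1 to Trib1, stay above the dashed threshold of 0.05 throughout, and the last 5, Jun to Pdgfb, lie on both sides of it.

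The genes next in order did not pass by edgeR's quasi-likelihood test in the main fit, which gave the adjusted p of each gene below. Their calls depended on the method. DESeq2 called Klf6, Ier2, Klc1, F3 and Dusp6 higher (adjusted p = 0.00365, 0.0129, 0.0129, 0.00786 and 0.0266). In edgeR without a filter on low counts, Ier2 passed and the other genes of these did not. None of them passed by limma-voom. Klf6, a zinc-finger factor induced by injury, stood at 168, 182 and 193 CPM in mock against 234, 237 and 203 CPM in Nnmt-OE libraries, and with TGFβ at 182, 185 and 180 CPM and 221, 213 and 234 CPM. Its 6 mock libraries lay below its 6 Nnmt-OE libraries, and the pooled log2 fold change was 0.30 (adjusted p = 0.0621). Ier2, an immediate-early nuclear protein, had a larger difference of 0.91 at a lower level, with mock values of 6.22, 11.2 and 14.4 CPM and Nnmt-OE values of 27.7, 21.4 and 14.1 CPM (adjusted p = 0.0633). With TGFβ, Ier2 stood at 11.5, 9.93 and 9.37 CPM in mock against 19.3, 16.3 and 19.4 CPM in Nnmt-OE, so it overlapped without TGFβ but not with it. Klc1, a kinesin light chain, had a difference of 0.32 (adjusted p = 0.113).

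Dusp6 encodes the phosphatase specific to ERK. Its values were 143, 136 and 131 CPM in mock against 181, 190 and 168 CPM in Nnmt-OE libraries, and with TGFβ 103, 120 and 93.7 CPM against 133, 128 and 114 CPM. The groups were apart without TGFβ and overlapped with it, where a mock library at 120 CPM lay above a Nnmt-OE library at 114 CPM. The pooled log2 fold change of Dusp6 was 0.32 (adjusted p = 0.122), and TGFβ lowered the gene (-0.45, adjusted p = 0.000127). F3 encodes tissue factor, which starts coagulation. It stood at 45.1, 49.0 and 46.1 CPM in mock against 55.0, 65.4 and 60.9 CPM in Nnmt-OE, and with TGFβ at 58.4, 62.1 and 66.1 CPM against 82.3, 85.3 and 80.9 CPM. Its groups were apart within each treatment, and its pooled log2 fold change was 0.39 (adjusted p = 0.116).

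Among genes that were lower, Nr2f2 had the smallest p. It encodes the nuclear receptor COUP-TFII. It stood at 398, 361 and 405 CPM in mock against 311, 335 and 315 CPM in Nnmt-OE libraries, and with TGFβ at 313, 308 and 288 CPM and 252, 286 and 204 CPM. The groups were apart within each treatment, and mock libraries with TGFβ lay at or below the lower Nnmt-OE values without it. Nr2f2 had a pooled log2 fold change of -0.28 (adjusted p = 0.113), and TGFβ lowered it (-0.36, adjusted p = 0.000361). It was among the 3 genes that DESeq2 called lower. It also passed in edgeR without a filter on low counts (adjusted p = 0.0254), but not by limma-voom.

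Gene lists show how far the pattern of the called genes extended. The immediate-early transcription factor list had 24 of 28 members tested, 3 higher and 0 lower. Of the 24, 20 had a log2 fold change above 0, with a median of 0.20, against 49.6% and -0.0016 over all genes tested. Beyond Egr1, Junb and Jun, Fos, the partner of JUN in AP-1, had a mean of 4.09 CPM in mock against 8.85 CPM in Nnmt-OE libraries (log2 0.98 ± 0.34, adjusted p = 0.635). Nr4a1, a nuclear receptor without known ligand, had means of 6.26 and 13.0 CPM (0.97 ± 0.24, adjusted p = 0.137), and Atf3, a stress-induced factor, a difference of 0.54 (adjusted p = 0.36). Jund, Klf4, Nr4a2 and Ets2 were the members below 0, at -0.12, -0.10, -0.15 and -0.12.

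The list of MAP kinase phosphatases and ERK feedback proteins had 22 of 23 members tested, 2 higher (Dusp1 and Ier3) and 0 lower, with 18 above 0 and a median of 0.27. Dusp5, Errfi1, an inhibitor of the EGF receptor, and Epha2 had differences of 0.73, 0.41 and 0.27 that did not pass (adjusted p = 0.677, 0.133 and 0.694). Dusp14 and Dusp4 were among the members below 0, at -0.11 and -0.30. In the list of short-lived stress and decay factors all 25 members were tested, with 2 higher (Trib1 and Btg2) and 0 lower, 21 above 0 and a median of 0.22. Arc, known as a neuronal activity gene, had no overlap between its 6 and 6 libraries at a log2 fold change of 0.67 (adjusted p = 0.184). Plk2, Gadd45g and Cited2 had differences of 0.27, 0.26 and 0.25, and Gadd45a one of -0.26, none of which passed. Over the 3 lists together, 71 of 76 genes were tested, 59 of them (83.1%) were above 0, and 26 were higher and 0 lower at an unadjusted p under 0.05. Over all genes tested, 49.6% were above 0, 3.34% were higher and 2.85% lower at that p, and 0.0930% were called. The 64 not called included 52 above 0 and had a median of 0.20. Since members of these lists were known from earlier results to move, the counts describe them and are no independent evidence.

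The list of EGF receptor ligands and receptors, whose signal reaches many of these genes, had a median near that of all genes. These are RNA levels, and signalling through the receptors was not tested. Of 13 genes 9 were tested, 0 passed, 5 were above 0 and the median was 0.005. Hbegf, a ligand that is itself induced early, had a difference of 0.27 (adjusted p = 0.494), Erbb2 one of -0.36 (adjusted p = 0.786), and Egfr one of 0.0048.

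Targets of YAP and TEAD, read out of cell shape and tension, had 24 of 25 members tested, 1 higher (Ccn1), 0 lower, 20 above 0 and a median of 0.13, where all genes tested had 0.0930% called, 49.6% above 0 and a median of -0.0016. Ccn2, the relative of Ccn1 best known as a fibrosis gene, had means of 310 CPM in mock against 453 CPM in Nnmt-OE libraries (log2 0.54 ± 0.12, adjusted p = 0.274). Ankrd1 and Lats2 had differences of 0.21 and 0.26. The list median was 0.096 without the 3 libraries that stood apart. TGFβ and SMAD targets and feedback genes had 21 of 24 members tested, 2 higher (Junb and Pdgfb), 0 lower, 16 above 0 and a median of 0.16, to be read against the same 0.0930% and 49.6%. Junb was also counted in the immediate-early list. The feedback inhibitors Smad7 and Smad6 stood at 0.14 and 0.0062, and Pmepa1, with a TGFβ change of 0.97, had a construct difference of 0.19 (adjusted p = 0.645).

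Structural genes of fibrosis had no call. The contractile and mesenchymal list had 24 of 26 tested, 0 passed, 18 above 0 and a median of 0.057. Acta2, smooth muscle actin, had means of 36.8 and 54.5 CPM, with log2 differences of 0.21 without and 0.64 with TGFβ (adjusted p = 0.274 pooled). Collagen and matrix genes had 33 of 39 tested, 0 passed, 24 above 0 and a median of 0.041, with Ccn4 at 0.23 (adjusted p = 0.481). The list of secreted proteins of senescent cells had 27 of 45 tested, 1 higher (Cxcl1), 0 lower, 22 above 0 and a median of 0.165. The p53 and arrest list had 30 of 31 tested, 1 higher (Btg2), 0 lower, 21 above 0 and a median of 0.054, and Bax, a p53 target that promotes apoptosis, stood at -0.36 (adjusted p = 0.633). Btg2 was also counted among the short-lived stress and decay factors. The cell cycle and replication list had 61 of 61 tested, 0 passed and a median of 0.029. Over all genes tested, 0.0930% were called, 49.6% were above 0 and the median was -0.0016.

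The pathways in which NNMT acts showed no called gene. NAD metabolism had 24 of 34 tested, 12 above 0 and a median of 0.002. Of its members at 10 CPM or more, Pnp, which splits nucleosides, had the highest difference at 0.40 and Sirt7, an NAD-dependent deacylase, the lowest at -0.30 (adjusted p = 0.694 and 0.815). The methionine cycle and one-carbon list had 39 of 44 tested, 17 above 0 and a median of -0.013. Among the members at 10 CPM or more, Mthfd2l had the highest difference at 0.42 (adjusted p = 0.756, edgeR quasi-likelihood test). Inmt, a methyltransferase related to NNMT, had the lowest at -0.40 (adjusted p = 0.805 by the same test). The highest value of the whole list, of a member below 10 CPM, was 1.05 and did not pass either. Histone and DNA methyltransferases had 41 of 42 tested, 20 above 0 and a median of 0, with Kmt5c at 0.39 and Ezh1 at -0.31 (adjusted p = 0.79 and 0.786). The absence of a call does not show that these genes were unchanged, since differences as large as those of Mthfd2l and Pnp did not pass.

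**Figure D5:**
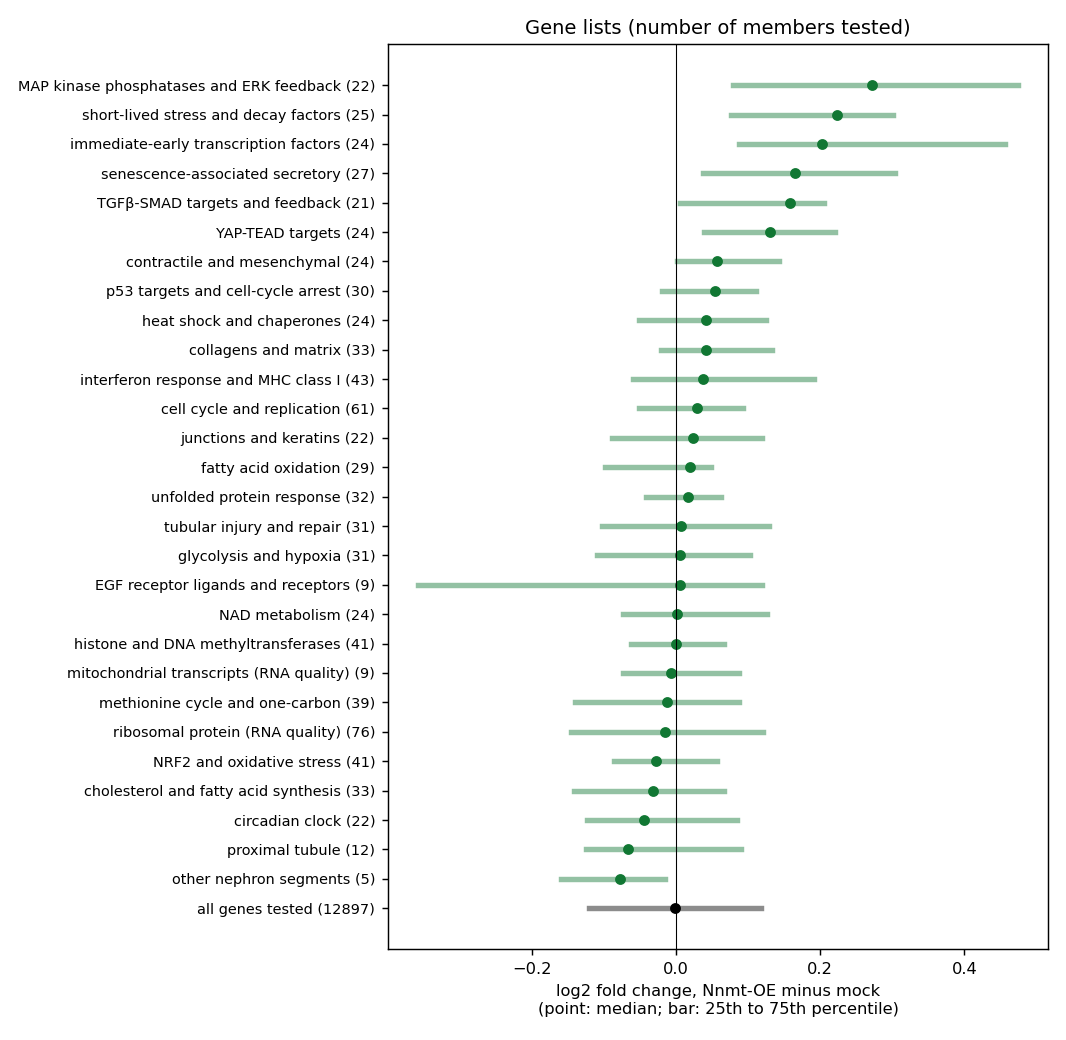
Pooled log2 fold change of libraries labelled Nnmt-OE over mock (horizontal axis) for the tested members of 28 gene lists and for all genes tested (black), with the median as a point and the 25th to 75th percentile as a bar. The 3 early-response lists have the highest medians, 0.20 to 0.27, and the NAD, methionine and methyltransferase lists lie near 0 with the median of all genes.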

How the data were processed

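The data are QuantSeq 3′ tag libraries made from 100 ng of RNA per sample, per the labels' protocols, so counts are of reads near transcript ends. The authors deposited raw read counts for each gene and library. STAR and HTSeq were used, per the submitters' processing notes, with versions not given, and the notes name GRCh38 while the identifiers are mouse Ensembl identifiers. The annotation and strand setting were not given in the sources used here, so reads of overlapping genes on opposite strands may be mixed. The table held 55487 genes, of which 55141 (99.4%) were matched to a GENCODE M21 symbol. The 5 rows that name no gene were left out (no feature 26.4 to 28.79%, ambiguous 0.603 to 0.679% per library).

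Libraries were grouped by their titles. In edgeR 4.0.16 under R 4.3.3, filterByExpr (minimum count 10, minimum total 15) kept 12897 genes and removed 42590. Counts were scaled by TMM (factors 0.981 to 1.01) and fitted with construct and TGFβ as additive terms, 9 residual degrees of freedom, with robust quasi-likelihood tests adjusted by Benjamini-Hochberg over all genes, at 0.05. The contrasts within a treatment and the interaction came from a fit with a mean for each group (8 degrees). CPM are computed here from the counts and TMM factors. The intervals rest on the spread between libraries in the fit. No molecular identifiers are stated, so the counts are of reads, not molecules. The procedure was tested on simulated data.

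The members, the 28 gene lists (947 genes, 779 tested) and the tests were chosen with earlier results of these data known. The rule for named genes took Nnmt, all called genes, the 8 next by p unless predicted or unnamed, genes called in either treatment, and the highest and lowest member at 10 CPM or more of each list. Other list members, such as Fos and Nr4a1, were chosen after their values were seen. A few genes within this rule or the marker lists are left unreported. Alternatives were DESeq2 1.42.0, limma-voom (limma 3.58.1), RLE scaling, library totals, no filter, a stricter filter (at least 50 counts, with 1 CPM in 6 libraries), no TGFβ term, group means, a replicate block, each library or each treatment left out, a non-robust fit, Nnmt left out and a 1.2-fold threshold. The fit without the 3 libraries that stood apart was added after seeing the data. RefSeq promoter windows are from GRCm38.p6.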

Additional observations from a re-analysis of the deposited data

Results flagged for a closer look

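Of 48 groups of 6 libraries checked for a library far from the others, 1 had one. Named genes were checked after the TGFβ term was removed. Measures of the libraries, such as reads in genes and genes detected, were checked as they were, with both treatments together. Chance flags about 1 in 20 groups. Jun in Nnmt-OE with TGFβ replicate 3 (197 CPM) was the highest of the 6 Nnmt-OE libraries, with a gap to its neighbour of 0.651 of the whole range against a critical value of 0.625. Jun lost its call without this library, as given above.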

How the results depend on the processing

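The 12 pooled calls became 27 with DESeq2 (24 higher and 3 lower), 19 without a filter on low counts (17 higher and 2 lower), 2 without the TGFβ term, 3 in the untreated libraries alone, 3 in the TGFβ libraries alone, and 3 against a fold of 1.2. With 1 library left out they ranged from 6 to 13. RLE scaling and library totals gave 12 each, limma-voom 13, the stricter filter 11, group means 9, the non-robust fit 9, and the table without Nnmt 12. The 5 calls without TGFβ ranged from 3 to 6, and the 3 with TGFβ from 1 to 3, with 1 library left out, and the interaction had 0 calls in each alternative run. For the named genes, 433 alternative values kept their direction and their side of the threshold, 92 lost the call, 19 gained it and 1 changed direction, the uncalled difference of Nnmt, which was -0.139 in the TGFβ libraries alone. Of the list medians, 703 stayed within their margin and 25 moved, among them that of the proximal tubule list (12 genes), which was 0.063 without a filter. Fewer libraries or tested genes are part of some of these alternatives, and otherwise the cause was not tested. Depth limits the genes below 10 CPM most.

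No pairing of libraries by equal replicate numbers was seen in the residuals, which cannot exclude a shared culture or day. Residual correlations of same-numbered libraries ran from -0.206 to 0.153 and exceeded 0.1 in 2 of 18 pairs, and 5 of 12 libraries lay closest to their own number. With a replicate block, 11 genes were called in the pooled fit (10 shared), 4 without TGFβ, 3 with TGFβ and 0 in the interaction.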

Other observations

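Stress and defence lists held no called gene in the pooled comparison. Interferon response and MHC class I genes had 43 of 46 tested, 27 above 0 and a median log2 fold change of 0.037, with medians of -0.02 without and 0.142 with TGFβ. In that list Oasl2, an antiviral gene, stood at 0.53 and Cd74, the invariant chain of MHC class II, at -0.46 (adjusted p = 0.761 and 0.688, edgeR quasi-likelihood test). The NRF2 list had 41 of 45 tested, 16 above 0 and a median of -0.028, with Sod2, the mitochondrial superoxide dismutase, at 0.25. The unfolded protein response had 32 of 32 tested, 17 above 0 and a median of 0.017, with Chac1 at 0.44 and Ddit3 at -0.17. Heat shock genes had 24 of 25 tested, 16 above 0 and a median of 0.042, with Dnajb1 at 0.23.

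Metabolic lists held no called gene either. Cholesterol and fatty acid synthesis had 33 of 33 tested, 14 above 0 and a median of -0.032. Its member Scd1, the desaturase that makes oleate, had a mean of 27.7 CPM in mock libraries and 18.9 CPM in those labelled Nnmt-OE, with log2 differences of -0.44 without and -0.70 with TGFβ (adjusted p = 0.285 pooled). Fatty acid oxidation had 29 of 36 tested, 15 above 0 and a median of 0.02, with Crat at -0.42. Glycolysis and hypoxia had 31 of 38 tested, 17 above 0 and a median of 0.006, with Bhlhe40 at 0.41. The circadian clock list had 22 of 24 tested, 9 above 0 and a median of -0.045, with Nr1d1, a clock repressor, at -0.54 (adjusted p = 0.728).

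Of the lists on cell identity, junctions and keratins had 22 of 40 tested, 11 above 0 and a median of 0.024, with Crb3 at 0.61. Proximal tubule genes had 12 of 44 tested, 4 above 0 and a median of -0.067, and Lrp2, the endocytic receptor megalin, stood at -0.14. Other nephron segments had 5 of 33 tested and 1 above 0, with a median of -0.078. Tubular injury and repair had 31 of 33 tested, 2 higher (Cxcl1 and Pdgfb), 0 lower, 16 above 0 and a median of 0.007. These calls were also counted in other lists above, and over all genes tested 0.0930% were called and 49.6% were above 0. C3, the complement component, stood at -0.39. Ribosomal protein genes had 76 of 79 tested, 33 above 0 and a median of -0.015, and mitochondrial transcripts 9 of 15 tested, 4 above 0 and a median of -0.007.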
